A study of Schizosaccharomyces pombe with 80 samples.

Results

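The genes described here are 9 meiotic genes of fission yeast (*Schizosaccharomyces pombe*) whose transcripts are removed in growing cells by RNA elimination: *mug8*, *mbx2*, *mug9*, *mug45*, *rec8*, *spo5*, *mek1*, *mug1* and *crs1*. They were chosen by name, out of 5113 protein-coding genes annotated on chromosomes I, II and III. Their silencing in growing cells was known beforehand, and earlier results of these data were also known when they were chosen. Dimethylation of histone H3 at lysine 9 (H3K9me2), the mark of heterochromatin, was measured by chromatin immunoprecipitation and sequencing, and each library was deposited as a list of peaks. A gene was scored as carrying a peak when a listed peak overlapped it by at least 1 bp. A total of 74 lists held peaks and were searched.

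Every isolate and parent was deleted for *epe1*, whose product opposes heterochromatin. Isolates of 3 kinds expressed *tfs1DN*, a dominant-negative TFIIS (an elongation factor that rescues stalled RNA polymerase II), from a copy integrated at *leu1* under the thiamine-repressible *nmt1* promoter, and were grown with thiamine. These were 13 epe1 tfs1DN isolates, 12 epe1 ago1 tfs1DN isolates that also lacked the Argonaute gene *ago1*, and 15 seb1-1 epe1 tfs1DN isolates that carried the seb1-1 allele of Seb1, a transcription termination factor that binds nascent RNA. Their reference was 15 epe1 vector isolates, which carried the same plasmid backbone with no insert. The other lists came from 2 epe1 parents, 3 epe1 ago1 parents, 1 seb1-1 epe1 parent, 9 input samples of unenriched chromatin, and 2 pfs2-11 and 2 wild-type samples. Those last 4 samples are labelled 37 °C, a raised temperature, and are not labelled as lacking *epe1*, while pfs2-11 is a mutant allele of a cleavage and polyadenylation factor. All isolates and parents are labelled 30 °C.

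In growing fission yeast, the YTH-domain protein Mmi1 binds a short hexamer, UNAAAC, in meiotic transcripts and hands them to the nuclear exosome through the Red1 complex. At some of these genes the same machinery brings in the H3K9 methyltransferase Clr4, which builds small islands of heterochromatin. *mei4*, *ssm4*, *num1* and *mcp7* are well-known genes of this kind and serve here for comparison. Among the 9 genes, *rec8* encodes the meiotic kleisin subunit of cohesin, *mek1* a meiosis-specific kinase of the recombination checkpoint, *crs1* a meiotic cyclin, and *spo5* a meiotic RNA-binding protein needed for sporulation. *mbx2* encodes a MADS-box transcription factor that activates cell-adhesion genes, and *mug1*, annotated as *jnm1*, encodes the dynactin subunit dynamitin. *mug8*, *mug9* and *mug45* are named for their rise in meiosis.

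Of the 9 genes, 3 carried a peak in at least 1 list, namely *mug8*, *mbx2* and *mug9*. The other 6 carried none in any of the 74 lists. All 3 genes with a peak overlap sites on the study's list of known heterochromatin sites, as do *mug45* and *mug1*. *rec8*, *spo5*, *mek1* and *crs1* overlap none. The study did not count peaks near such sites as new domains. It reported no relation between *tfs1* genotype and H3K9me enrichment at known sites, a measure other than the presence of a peak used here. The first set of sequences shows, for *mug8* and *mbx2*, the stretch shared by all peaks over the gene, in the gene's sense direction, with each match to TNAAAC (the DNA form of the Mmi1 hexamer) in capitals. The *mug8* stretch is chrI:2446990-2447195 on the plus strand and lies wholly in coding exon. The *mbx2* stretch is chrII:3626887-3627186 on the plus strand, the middle 300 bp of the 329 bp shared by its peaks, and is also wholly coding.

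mug8 under every peak: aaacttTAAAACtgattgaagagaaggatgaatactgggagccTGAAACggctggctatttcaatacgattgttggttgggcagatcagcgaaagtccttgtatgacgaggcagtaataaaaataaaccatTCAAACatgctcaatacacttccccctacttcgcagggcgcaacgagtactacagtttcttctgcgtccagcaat
mbx2 under every peak: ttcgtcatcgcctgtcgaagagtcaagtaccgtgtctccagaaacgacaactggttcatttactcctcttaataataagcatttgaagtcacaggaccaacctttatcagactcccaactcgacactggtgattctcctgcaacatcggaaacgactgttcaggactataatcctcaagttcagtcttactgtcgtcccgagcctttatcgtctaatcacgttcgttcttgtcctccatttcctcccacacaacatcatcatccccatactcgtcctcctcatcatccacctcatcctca

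The shared *mug8* stretch holds 3 matches, and the shared *mbx2* stretch holds 0. At least 1 match was present in 29.6% of windows of the *mug8* length laid end to end along all protein-coding genes, and in 40.1% of windows of the *mbx2* length. As many as 3 matches were present in 0.598% of windows of the *mug8* length. A match is a description of the letters and does not show that a site is bound.

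The second set shows where matches are densest, as one coding window of 150 bases with the most matches for 2 genes that carried peaks and 2 that did not. The windows are chrI:2446846-2446995 (plus strand, *mug8*), chrIII:2369289-2369438 (minus strand, *mug9*), chrII:2570132-2570281 (plus strand, *rec8*) and chrI:5232410-5232559 (plus strand, *mek1*), again in the sense direction with TNAAAC in capitals.

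mug8 densest window: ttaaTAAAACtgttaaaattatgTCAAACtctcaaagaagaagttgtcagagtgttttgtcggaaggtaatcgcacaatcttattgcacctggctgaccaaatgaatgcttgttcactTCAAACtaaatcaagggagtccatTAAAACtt
mug9 densest window: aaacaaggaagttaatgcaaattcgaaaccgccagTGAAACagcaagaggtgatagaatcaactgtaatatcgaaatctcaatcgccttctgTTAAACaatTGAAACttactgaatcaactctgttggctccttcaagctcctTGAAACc
rec8 densest window: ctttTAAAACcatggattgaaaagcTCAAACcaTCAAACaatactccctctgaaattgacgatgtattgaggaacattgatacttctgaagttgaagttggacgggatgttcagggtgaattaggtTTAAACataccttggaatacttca
mek1 densest window: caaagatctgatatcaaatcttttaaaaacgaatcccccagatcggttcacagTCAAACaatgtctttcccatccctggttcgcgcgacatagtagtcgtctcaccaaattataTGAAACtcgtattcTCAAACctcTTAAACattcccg

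Each of these 4 windows holds 4 matches. Taking the densest coding window of each of 4989 protein-coding genes in the same way, 0.621% of genes reached 4 matches. The richest windows of *mug45*, *spo5*, *mug1* and *crs1* hold 3, and that of *mbx2* holds 1, numbers reached by 4.55% and 77.2% of genes. Over whole genes, the density of matches on the sense strand ran from 2.48 per kb (*mbx2*) to 12.1 per kb (*mug9*), with a median of 6.65 over the 9 genes against 1.65 over all protein-coding genes. On the other strand the median was 2.80 per kb for the 9 genes and 1.93 for all protein-coding genes. The 3 genes that carried peaks had 12.1 (*mug9*), 5.66 (*mug8*) and 2.48 (*mbx2*) matches per kb, and the 6 that carried none ran from 3.50 (*mek1*) to 7.78 (*rec8*), so the densities of the 2 sets overlapped. *mbx2*, the gene with a peak in the most isolates, had the lowest density of the 9, above 77.7% of protein-coding genes. *mug8* is uneven along its length. All 14 of its matches lie in the 1.26 kb that came under a peak in at least 1 isolate, and 0 in the other 1.21 kb. The 1.26 kb is set by the peak of isolate 5 alone, and 3 of the 14 matches lie under every peak. In *mug9* the split ran the other way, with 10.3 matches per kb under a peak (6 in 0.58 kb) and 18.2 per kb outside (only 3 in 0.165 kb). In *mbx2* it was 3.10 per kb under a peak and 1.90 outside, with 2 of its 5 matches outside.

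The 12 peaks over *mug8*, *mbx2* and *mug9* all came from epe1 tfs1DN isolates, and all from isolates 5, 6, 8, 9 and 11. None of the 12 epe1 ago1 tfs1DN, 15 seb1-1 epe1 tfs1DN or 15 epe1 vector isolates had a peak over any of the 9 genes, and neither did the 6 parents, the 9 inputs, the 2 pfs2-11 or the 2 wild-type samples. A count of 0 in 15 isolates allows a share of up to 20%, and 0 in 12 up to 25%, counting error only. Lists contain only peaks of about 3-fold and above (the smallest listed was 3.00), so a gene without a peak may still carry H3K9me2 below that level.

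**Figure D1:**
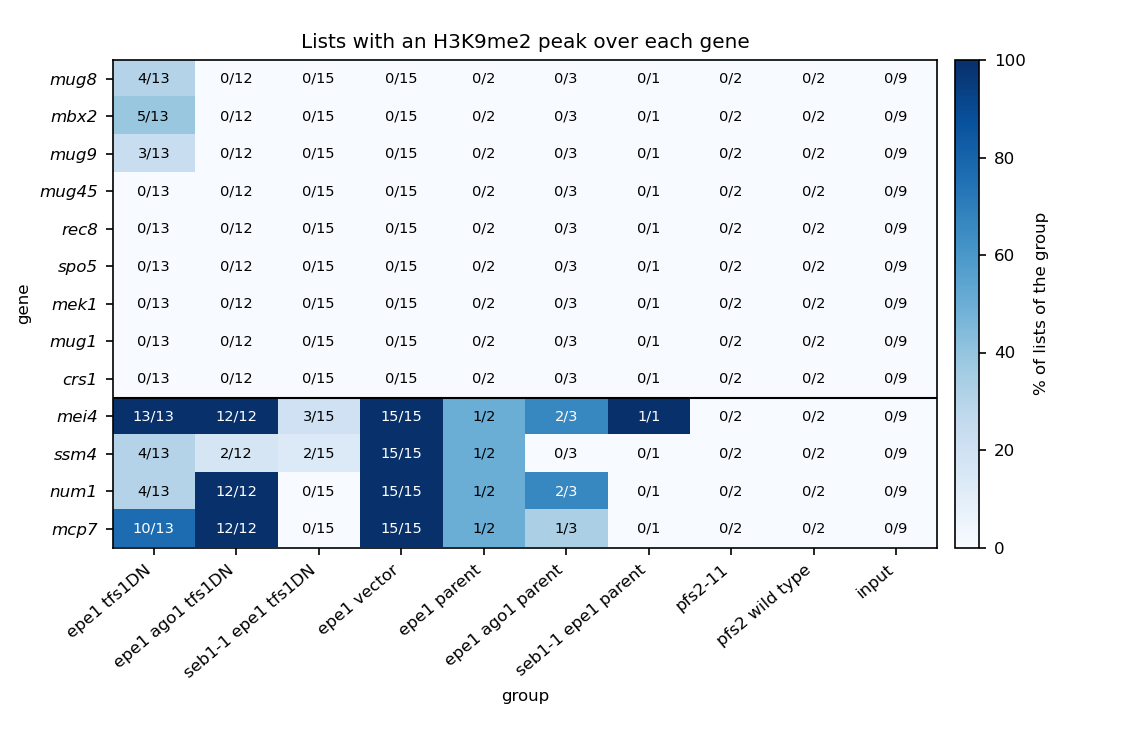
Number of lists with an H3K9me2 peak over each gene, of all lists in the group (genes down, groups across, shade giving the percent of lists). Above the line, of the 9 genes described here, *mug8* (4 of 13), *mbx2* (5 of 13) and *mug9* (3 of 13) have peaks in epe1 tfs1DN isolates and in no other group, while below it *mei4*, *ssm4*, *num1* and *mcp7* have peaks in all 15 epe1 vector isolates.

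*mbx2* (chrII:3626639-3628658, plus strand, 2.02 kb) carried a peak in 5 of 13 epe1 tfs1DN isolates, against 0 of 15 epe1 vector isolates. The share in epe1 tfs1DN isolates was 38.5% with a 95% exact Clopper-Pearson interval of 13.9% to 68.4%. The fold of each peak, the authors' mean coverage over the peak divided by their mean coverage of its chromosome, was 4.20 in isolate 5, 3.87 in isolate 11, 3.59 in isolate 9, 3.14 in isolate 8 and 3.14 in isolate 6. Peak lengths kept nearly that order, at 1.20 kb in isolate 5, 0.934 kb in isolate 11, 0.827 kb in isolate 9, 0.436 kb in isolate 6 and 0.329 kb in isolate 8. The 3 longer peaks began 148 to 234 bp before the annotated start of the gene and the 2 shorter ones 135 and 234 bp inside it. None reached past 968 bp from the start, so the 3′ part of *mbx2* lay under no peak in any list. Within the gene, every base under a peak was coding. The gene also lies over an antisense noncoding transcript, SPNCRNA.1626, which was under the same 5 peaks, and H3K9me2 does not tell strands apart.

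*mug8* (chrI:2445242-2447714, plus strand, 2.47 kb) carried a peak in 4 of 13 epe1 tfs1DN isolates, a share of 30.8% (interval 9.09% to 61.4%), against 0 of 15 epe1 vector isolates. In isolate 5 the peak had a fold of 4.17 and was 3.99 kb long. It covered the last 51.0% of the gene and ran on past its 3′ end over the convergent gene SPAC32A11.02c, which encodes an uncharacterized protein. The other 3 peaks stayed inside the gene, at 0.749 kb and 3.55-fold in isolate 11, 0.235 kb and 3.17-fold in isolate 6, and 0.206 kb and 3.18-fold in isolate 8. All 4 peaks began 1211 to 1748 bp from the start of *mug8*, and the 5′ end of the gene was under no peak. SPNCRNA.3101, a noncoding transcript annotated antisense to *mug8*, lay under the same 4 peaks. SPAC32A11.02c itself carried peaks in isolates 5, 9 and 11, so isolate 9 had a peak over the neighbour and none over *mug8*.

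*mug9* (chrIII:2369108-2369852, minus strand, 0.745 kb) carried a peak in 3 of 13 epe1 tfs1DN isolates, a share of 23.1% (interval 5.04% to 53.8%), against 0 of 15 epe1 vector isolates. The peak was 0.703 kb and 3.61-fold in isolate 5, 0.488 kb and 3.40-fold in isolate 11, and 0.218 kb and 3.07-fold in isolate 8. These covered 77.9%, 65.5% and 29.3% of the gene. No peak over *mug8* or *mbx2* covered as much of its gene as the *mug9* peaks of isolates 5 and 11. The neighbouring gene SPCC70.08c, which is annotated as a methyltransferase and lies 441 bp from *mug9*, carried peaks of its own in isolates 5, 6, 8, 9 and 11, at 3.21-fold to 4.74-fold and up to 1.04 kb long. Those 5 isolates are the ones with a peak over *mbx2*, and no other list had a peak over SPCC70.08c. It was singled out after its values were seen.

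**Figure D2:**
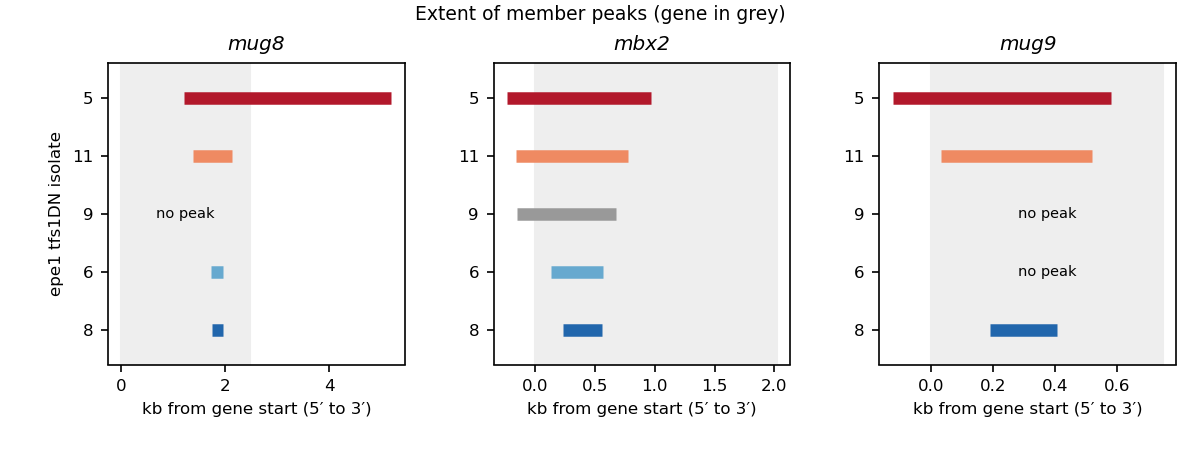
Extent of each peak over *mug8*, *mbx2* and *mug9* in the 5 epe1 tfs1DN isolates that had one (x axis, kb from the annotated gene start in the direction of transcription; bars, peaks; grey, the gene). The *mbx2* peaks end within 968 bp of the gene start, the *mug8* peaks begin at least 1211 bp from it, and the peak of isolate 5 runs past the 3′ end of *mug8*.

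The 3 genes lie on 3 different chromosomes, and their peaks fell in overlapping sets of isolates. Isolates 5, 8 and 11 had a peak over all 3, isolate 6 over *mug8* and *mbx2*, and isolate 9 over *mbx2* alone. Such overlap was not particular to these genes. Among other coding genes, *bms1* had a peak in all 5 of these isolates and *abo1* in 4 of them, and both had peaks in further isolates. These 2 genes were picked after their values were seen, and the share of all genes with such overlap was not counted. Isolate 5 had the highest fold and the longest peak at each of the 3 genes, and isolate 11 the next highest at each. The 12 folds ran from 3.07 to 4.20. Only 2 peaks reached a fold of 4, only 2 were 1 kb or longer, and each pair comprised the *mug8* and *mbx2* peaks of isolate 5. Within their own lists the peaks were not extreme, since the *mbx2* peak of isolate 11 exceeded 82.0% of the peaks of that list in fold and the *mug9* peak of isolate 8 exceeded 18.2%.

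**Figure D3:**
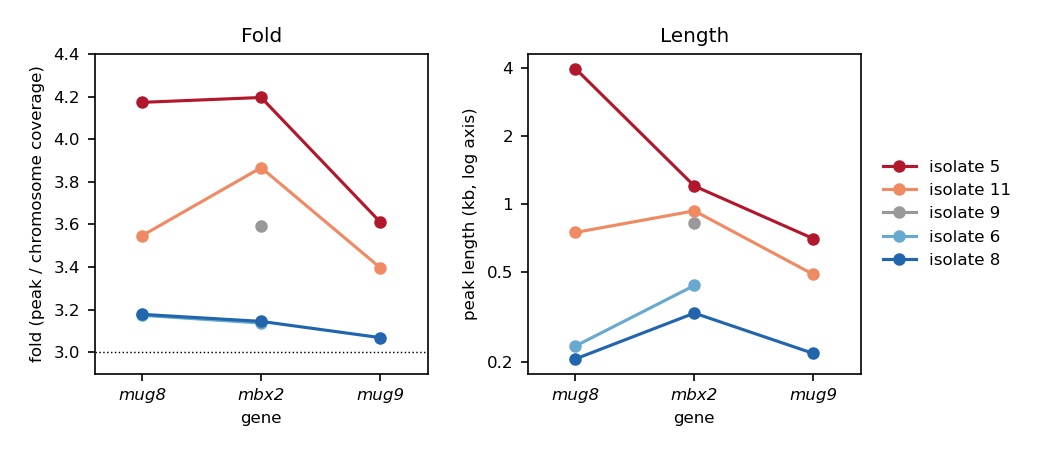
Fold (left, peak coverage over chromosome coverage, dotted line at 3, near the smallest fold listed) and length (right, kb, log axis) of the 12 peaks, with lines joining the peaks of 1 isolate. Isolate 5 is highest at all 3 genes, from 3.61 at *mug9* to 4.20 at *mbx2*, isolate 11 follows, and isolates 6 and 8 lie between 3.07 and 3.18.

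By the input that the labels pair them with, the epe1 tfs1DN isolates fell into 2 sets, called batches here. Batch 1 comprised isolates 1 and 13, and batch 2 isolates 2 to 12. Isolate 12 is paired with the batch 2 input in its own description, although the titles of that input and its parent run only to isolate 11. Neither isolate of batch 1 had a peak over any of the 9 genes, while 5 of 11 isolates of batch 2 did (45.5%, interval 16.7% to 76.6%). The lists of batch 2 were long, with 118 to 669 peaks against 75 and 83 in batch 1, 29 to 58 in epe1 ago1 tfs1DN, 58 to 88 in seb1-1 epe1 tfs1DN and 43 to 83 in epe1 vector isolates. The epe1 parent of batch 2 had 337 peaks and none over the 9 genes. Within batch 2, isolates with a peak over *mug8*, *mbx2* or *mug9* had a median of 341 peaks (219 to 669), and the 6 isolates without one had a median of 333.5 (118 to 372), so the ranges overlapped. Mean chromosome coverage was 3.63 to 8.67 reads per base in those with such a peak and 5.18 to 12.9 in those without. No batch held isolates of 2 groups, so group and batch cannot be told apart. The part of list length in the counts below was not tested.

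**Figure D4:**
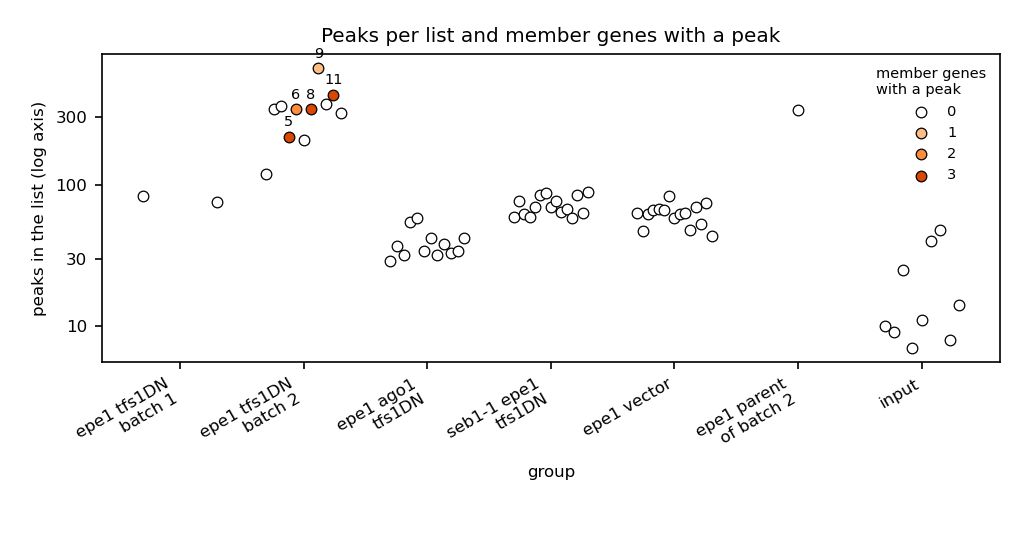
Peaks in each list (y axis, log scale) by group, 1 point a list, shaded by how many of the 9 genes carried a peak and numbered by isolate where any did. The shaded points, isolates 5, 6, 8, 9 and 11, all belong to batch 2 of epe1 tfs1DN, whose lists hold 118 to 669 peaks, more than the 43 to 83 of epe1 vector isolates.

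Each gene was tested by Fisher's exact test, two-sided, on the number of isolates with a peak, with Benjamini-Hochberg adjustment over all protein-coding genes with a peak in either group and a threshold of 0.05. Between epe1 tfs1DN and epe1 vector isolates, *mbx2* was called higher in epe1 tfs1DN (5 of 13 against 0 of 15, Fisher's exact p = 0.0131, adjusted p = 0.0351). *mug8* (4 of 13 against 0 of 15, Fisher's exact p = 0.0349, adjusted p = 0.0832) and *mug9* (3 of 13 against 0 of 15, Fisher's exact p = 0.0873, adjusted p = 0.179) did not pass. The other 6 genes had no peak in either group and were not tested. Of the 743 genes tested, 225 (30.3%) were called higher, so a call was common among genes with a peak, and *mbx2* entered the test only through its peaks in epe1 tfs1DN isolates. With adjustment over every protein-coding gene, *mbx2* was not called (adjusted p = 0.242, Fisher's exact test), nor was it with peaks of at least 1 kb (adjusted p = 0.561) or at least 4-fold (adjusted p = 0.565). The call was also lost when any 1 of isolates 5, 6, 8, 9 or 11 was left out (adjusted p between 0.0553 and 0.0718). With batch 2 alone, *mbx2* was in 5 of 11 isolates and the adjusted p was 0.0196 (Fisher's exact test). This setting drops only isolates without a peak over *mbx2*, so the share could only rise. The epe1 vector lists were the shallower ones, with chromosome coverage of 1.91 to 7.20 reads per base against 3.63 to 12.97 in epe1 tfs1DN lists. The part of depth was not tested.

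The seb1-1 epe1 tfs1DN isolates were also compared with the epe1 tfs1DN isolates. Genotype and batch coincide here, so the comparison cannot tell whether the peaks depended on Seb1. *mbx2* carried a peak in 0 of 15 seb1-1 epe1 tfs1DN isolates against 5 of 13 epe1 tfs1DN isolates and was called lower (Fisher's exact p = 0.0131, adjusted p = 0.0344), where 30.1% of 714 genes tested were called lower. Here too *mbx2* was tested only through its epe1 tfs1DN peaks, and with adjustment over every protein-coding gene it was not called (adjusted p = 0.246, Fisher's exact test). *mug8* (0 of 15 against 4 of 13, adjusted p = 0.0810 by Fisher's exact test) and *mug9* (0 of 15 against 3 of 13, adjusted p = 0.180 by Fisher's exact test) did not pass. The call was again lost without any 1 of the 5 isolates (adjusted p between 0.0537 and 0.0700). This comparison shares the epe1 tfs1DN isolates with the one above. The seb1-1 lists were the deeper ones, with chromosome coverage of 18.8 to 48.9 reads per base against 3.63 to 12.97 in epe1 tfs1DN lists.

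Between epe1 ago1 tfs1DN and epe1 tfs1DN isolates, none of the 9 genes was called by Fisher's exact test. Genotype and batch coincide in this comparison too, so it cannot tell whether the peaks depended on Argonaute. *mbx2* was in 0 of 12 epe1 ago1 tfs1DN isolates against 5 of 13 epe1 tfs1DN isolates (Fisher's exact p = 0.0391, adjusted p = 0.109), the 1 gene of the 9 with an unadjusted p under 0.05, as had 36.2% of the 712 genes tested. *mug8* (0 of 12 against 4 of 13) had an adjusted p of 0.236 and *mug9* (0 of 12 against 3 of 13) one of 0.475, both by Fisher's exact test. After adjustment, 28.2% of genes were called lower. Against batch 2 alone, *mbx2* passed (0 of 12 against 5 of 11, adjusted p = 0.0384, Fisher's exact test). That setting drops only isolates without a peak over *mbx2*, so the share could only rise. *mbx2* was again tested only through its epe1 tfs1DN peaks. The epe1 ago1 tfs1DN lists were deeper than the epe1 tfs1DN lists, with chromosome coverage of 14.1 to 34.9 reads per base against 3.63 to 12.97. Between epe1 ago1 tfs1DN and epe1 vector isolates, and between seb1-1 epe1 tfs1DN and epe1 vector isolates, all 9 genes were at 0 in both groups and none could be tested, while 22.6% of 186 and 35% of 203 genes tested there were called in either direction. In pfs2-11 against wild type, the 9 genes carried 0 peaks in all 4 samples.

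The 6 genes with no peak differed in how near a peak came. Upstream of *mug45* (chrII:3638417-3640971, plus strand), a peak lay within 2 kb in 10 of 13 epe1 tfs1DN isolates, all of batch 2, and in the epe1 parent of that batch. All of these peaks lay over *rpl402*, a ribosomal protein gene, and ended 829 to 1211 bp short of *mug45* in the isolates and 1291 bp short in the parent. Folds in the isolates ran from 3.09 (isolate 12) to 4.12 (isolate 9), and the fold in the parent was 3.04. For *crs1* (chrII:3452323-3453516, minus strand), the nearest peaks were 1256 bp away in isolate 9 and 1303 bp in isolate 12, at 3.22-fold and 3.07-fold over *ade9*. For *mug1* (chrIII:1456213-1457855, plus strand) the nearest were 2181 bp away in isolate 5 and 2191 bp in the parent of batch 2. The nearest peaks of any list to *mek1* (chrI:5231140-5232566), *rec8* (chrII:2568938-2570993) and *spo5* (chrII:2536150-2538254), all on the plus strand, were 6.88, 15.5 and 15.8 kb away, each in isolate 9, which had the longest list.

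The 4 comparison genes followed another pattern over the same lists. *mei4*, which encodes a meiotic forkhead transcription factor, carried a peak in all 13 epe1 tfs1DN, all 12 epe1 ago1 tfs1DN, 3 of 15 seb1-1 epe1 tfs1DN and all 15 epe1 vector isolates. *ssm4* was in 4 of 13 epe1 tfs1DN isolates against 15 of 15 epe1 vector isolates, *num1* in 4 of 13 against 15 of 15, and *mcp7* in 10 of 13 against 15 of 15. *ssm4* and *num1* were thus called lower in epe1 tfs1DN (adjusted p = 0.000574 each, Fisher's exact test), where 7.13% of genes were called lower, and *mbx2* was called higher. The epe1 parent of batch 2, which lacked *tfs1DN*, had a peak over 0 of the 4 comparison genes. The epe1 parent of the vector isolates had one over all 4. Group and batch coincide here too, so the part of *tfs1DN* cannot be told. Among seb1-1 epe1 tfs1DN isolates *ssm4* was in 2 of 15 and *num1* and *mcp7* in 0 of 15. Among epe1 ago1 tfs1DN isolates *ssm4* was in 2 of 12 and *num1* and *mcp7* in 12 of 12. Like *mbx2*, *mei4* and *mcp7* were called lower in seb1-1 epe1 tfs1DN than in epe1 tfs1DN (adjusted p = 0.000166 each, Fisher's exact test). There, *ssm4* and *num1* did not pass, and 30.1% of genes tested were called lower. Of the 4 genes, the seb1-1 epe1 parent had a peak over *mei4* only. Inside single lists, *mbx2* and *mei4*, which lie on the same chromosome, could be set side by side. *mbx2* had the higher fold in isolate 5 (4.20 for *mbx2*, 3.83 for *mei4*), isolate 11 (3.87 and 3.72) and isolate 9 (3.59 and 3.31), and the lower in isolate 6 (3.14 and 4.15) and isolate 8 (3.14 and 4.22). Isolates 5, 6 and 8 also carried peaks over all 4 comparison genes, isolate 11 over 2 of them and isolate 9 over 1, and each of the other 6 isolates of batch 2 over 1 or 2.

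Of the genes that encode RNA elimination factors, 13 were searched. Only *mlo3*, which encodes an RNA-binding export factor, carried a peak in epe1 tfs1DN isolates (3 of 13). Only *red1*, a core subunit of the elimination complex, carried one in epe1 vector isolates (1 of 15). *mmi1* itself carried none in any list. Over all protein-coding genes, 13.2% carried a peak in at least 1 epe1 tfs1DN isolate, against 3.09% in at least 1 epe1 vector isolate. Of the 9 meiotic genes the share was 33.3% (3 of 9) in epe1 tfs1DN against 0 in epe1 vector isolates.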

How the data were processed

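H3K9me2 ChIP-seq peak lists of 74 libraries were used, 1 list a library. One further list, for an epe1 parent, held only a header, and 5 samples of RNA polymerase II were left out. By the labels and methods, adaptors were trimmed, reads shorter than 20 nt dropped, alignment done with Bowtie on ASM294v2, and signal smoothed over 1 kb. SAMtools and bedtools are also named in the submitters' notes. The deposited signal is mean coverage of each peak and of its chromosome, with no scaling between libraries and no correction for input. Mean chromosome coverage ran from 1.91 to 86.1 reads per base and is the only depth given. The lists hold 7203 peaks of 51 bp or more.

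Starts were counted from 1. Gene positions and sequences came from the RefSeq assembly ASM294v3. No peak passed a chromosome end of that assembly (161, 27 and 14606 bp were left on chromosomes I, II and III).

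Groups came from the labels. Genes were tested across all protein-coding genes with Fisher's exact test and Benjamini-Hochberg adjustment (SciPy 1.17.1, pandas 2.3.3, NumPy 2.4.6). On simulated data the test recovered 98.95% to 100% of changed genes and called 0.258% to 0.675% of the others. Changed genes there were set to a peak in nearly all or nearly no isolates, a larger change than at any of the 9 genes. Recovery of changes as small as theirs was not simulated. Intervals are exact Clopper-Pearson at 95% and cover counting error only, and limits for a count of 0 are 3 of the total. Alternatives changed the overlap, gene interval, minimum length and fold, input peaks, genes tested, test, pairing, batches and isolates. Named genes were all 9 members, genes next to them under or near peaks, *mei4*, *ssm4*, *num1*, *mcp7*, 13 RNA elimination factors and the other genes named mug or meu. The members and lists were chosen with earlier results of these data known. The sequence shared by the *mug9* peaks is not reported here.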

Additional observations from a re-analysis of the deposited data

How the results depend on the processing

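Of 76 alternatives run on the counts of the 9 genes called, 53 left the count as it was. These include all alternatives for epe1 ago1 tfs1DN and for seb1-1 epe1 tfs1DN against epe1 vector, and for pfs2-11 against wild type. No such group had a peak over the 9 genes, so an unchanged count of 0 there is no sign of stability. A count of 1 held only without peaks overlapping input peaks, with all annotated genes tested, by permutation test, or with batch 2 only. Between epe1 tfs1DN and epe1 vector isolates, and between seb1-1 epe1 tfs1DN and epe1 tfs1DN isolates, the count of 1 became 2 with genes extended by 1 kb on each side, where *mug9* was also called (adjusted p = 0.0360 and 0.0362, Fisher's exact test). *mug9* itself carried peaks in isolates 5, 8 and 11 only. Isolates 6 and 9 came in through peaks outside it, and both had a peak over its neighbour SPCC70.08c. In both comparisons the count of 1 became 0 when a peak had to cover 50% of the gene, with peaks of at least 1 kb or of a fold of at least 4, with adjustment over every protein-coding gene (adjusted p of *mbx2* = 0.242 and 0.246, Fisher's exact test), and without replicate 5, 6, 8, 9 or 11 of epe1 tfs1DN (0 to 0). The alternatives without replicates 5, 6, 8 and 11 were chosen after seeing the data. Between epe1 ago1 tfs1DN and epe1 tfs1DN isolates the count of 0 became 1 with batch 2 only, which drops only isolates without a peak over the 9 genes. The cause of these moves was not tested, except that stricter rules, and leaving out isolates that had a peak, leave fewer isolates with a peak.

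Isolate numbers pair nothing, since over genes the median correlation between isolates sharing a number lay between -0.0399 and 0.00639. With the replicate block the count was 0 in each of the 5 comparisons, where the smallest exact sign-test p for any of the 9 genes was 0.0625. With at most 5 isolates with a peak against 0, the sign test could not go lower. No call of the 9 genes was thus possible under the block, and a call lost there was fixed in advance. Over all genes the calls with the block numbered 179, beside 278 without it (epe1 tfs1DN against epe1 vector), 8 beside 42 and 64 beside 71 (ago1 and seb1-1 against epe1 vector), and 157 beside 225 and 178 beside 273 (ago1 and seb1-1 against epe1 tfs1DN). Of 144 alternatives for single genes, 121 kept the side of the threshold, 20 lost a call and 3 gained one. No alternative could turn a direction, since the other groups had no peak over these genes.

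Lists give presence above about 3-fold only, coverage differed between groups, and batch and group cannot be told apart.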

Other observations

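Apart from the 9 genes, 107 genes are named mug or meu for their expression in meiosis, and 9 of them carried a peak in some list, 7 of them in epe1 tfs1DN isolates. These are 8.41% and 6.54% of the 107, beside 15.5% and 13.2% of all protein-coding genes. *mug106* carried one in 9 of 13 epe1 tfs1DN isolates, all of batch 2 and at 3.43-fold to 4.75-fold, and also in the epe1 parent of that batch at 3.58-fold. *mug70* on chromosome I and *mug33* on chromosome III carried peaks in the same 4 epe1 tfs1DN isolates, 3, 9, 10 and 11, at 3.05-fold to 3.29-fold and 3.05-fold to 3.43-fold. Of those isolates, 9 and 11 are among the 5 with a peak over *mbx2*. *meu27* had the opposite distribution, with 0 of 13 epe1 tfs1DN isolates and 8 of 15 epe1 vector isolates, at 3.02-fold to 3.57-fold. These genes were described after their values were seen, and no test was run on them as a list.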
